A study of Homo sapiens with 7 samples.

Results

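The epithelial keratins KRT5, KRT14, KRT15, KRT6A, KRT16, KRT17, KRT7, KRT8, KRT18 and KRT19 were followed through every probe set annotated to them on a whole-genome expression array. Of these 10 genes, 8 had an annotated probe set, with 12 probe sets among the 54675 on the array. KRT6A and KRT17 were not analysed here, because the annotation table used names no probe set for them and none was assigned from elsewhere. None of the 12 probe sets listed a second gene. KRT7 had 4 probe sets, KRT19 had 2, and each of the other 6 genes had 1.

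The cells were HSC-3, an established human line from an oral squamous cell carcinoma. The control culture stayed at 37 °C. Heat was applied for 90 min, at either 42 °C or 44 °C, and was followed by 0, 6 or 12 h of recovery at 37 °C. Each of the 7 conditions was measured on 1 array, so a difference between a pair of arrays has no replicate check and carries no p-value. The labels give no collection time for the control, and the same control array enters all 6 comparisons with heated cells.

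Keratins are the intermediate filament proteins of epithelial cells. They assemble as pairs of a type I and a type II chain: KRT5 pairs with KRT14 in the basal layer of stratified epithelia, and KRT8 pairs with KRT18 in simple epithelia. KRT6A, KRT16 and KRT17 are known for their induction in wounds and in hyperproliferative epidermis and mucosa, and squamous carcinomas often carry basal and simple keratins side by side.

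Intensities are given in the linear units of the deposited table. Values below a floor of 21.4, the median of all values on the 7 arrays, were set to the floor before a ratio was taken. The arrays differed in level: over the 20902 probe sets never below that floor, the median log2 difference from the control ran from -0.35 at 44 °C, 12 h to 0.40 at 44 °C, 0 h. The words rose and fell are therefore kept for probe sets that were past 2-fold in the same direction in 3 scalings, namely the deposited values, the quantile-normalized values and values shifted by each array's median difference (the median shift). Of 7 epithelial markers with a probe set, among them CDH1, EPCAM and DSP, all 7 were above the floor on every array, with a summed intensity between 25946 and 37023. Of markers of other cell types, 1 each of the fibroblast, endothelial and melanocyte lists and 0 of the leukocyte list were above the floor on all arrays. These were the collagen gene COL1A1 (139 to 307), PECAM1 (30.6 to 51.2) and the melanocyte factor MITF (205 to 436). The leukocyte markers PTPRC and LYZ, the endothelial markers VWF, CDH5, KDR and TEK, the fibroblast markers LUM and PDGFRA and the melanocyte markers PMEL and MLANA were below the floor on all 7 arrays. The remaining leukocyte markers CD3D, CD3E and CD14 reached at most 31.7, 27.6 and 43.5. Summed over their lists, fibroblast markers ranged from 205 to 422, leukocyte markers from 43.4 to 103, endothelial markers from 48.4 to 85.1 and melanocyte markers from 252 to 455. The fibroblast and leukocyte sums were lowest in the control, and their part in the keratin values was not tested.

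Few keratin readings differed from the control by 2-fold. Of the 12 probe sets, 9 stayed above the floor throughout and 3 were below it on every array (2 of KRT7 and 1 of KRT19). Over the 6 comparisons with the control, KRT7 was the only measured member with a probe set that rose, and no member fell. KRT15 rose once, between 42 °C and 44 °C at 6 h.

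Counted by comparison, 0 of the 9 probe sets rose and 0 fell at 42 °C, 0 h, where 1.76% of the 36482 probe sets that reached the floor on any array rose and 3.01% fell. Afterwards 1 of 9 rose at 42 °C, 6 h (1.7% of all probe sets rose), 1 at 42 °C, 12 h (0.932%), 1 at 44 °C, 0 h (3.3%), 1 at 44 °C, 6 h (1.69%) and 1 at 44 °C, 12 h (1.61%). All 5 calls came from KRT7. The shares of all probe sets that fell in these 5 comparisons were 1.93%, 1.7%, 1.08%, 3.27% and 4.39%, and no keratin probe set was among them.

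**Figure D1:**
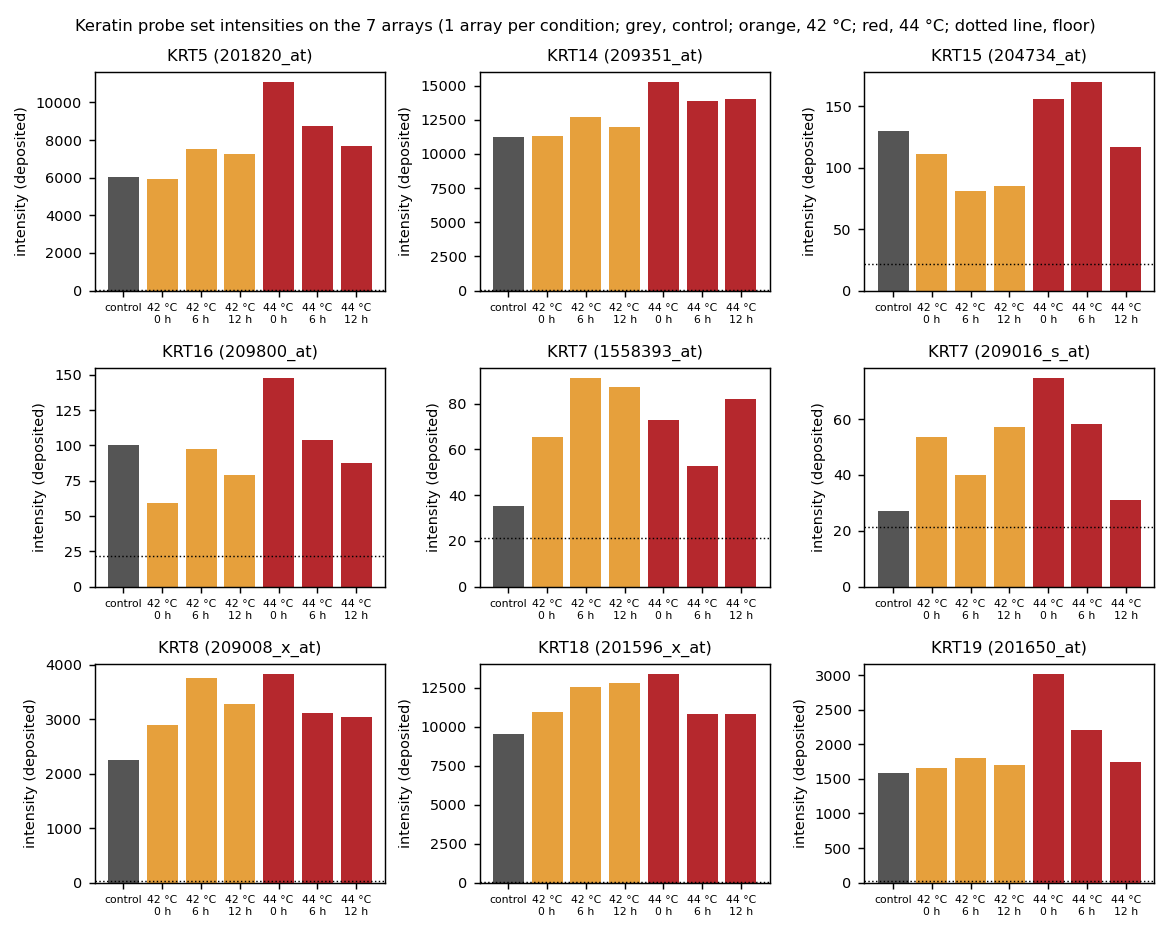
Deposited intensity (linear scale, from 0) of the 9 keratin probe sets above the floor, one panel each, on the control array (grey), the 42 °C arrays (orange) and the 44 °C arrays (red) at 0, 6 and 12 h of recovery; each bar is 1 array. KRT14 stayed between 11252 and 15234 on all 7 arrays, while the dim KRT7 probe sets stood lowest in the control.

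Among the basal keratins, KRT5, the type II chain of basal keratinocytes, read 6011 in the control. It read 5949, 7506 and 7241 at 42 °C and 11063, 8760 and 7660 at 44 °C, in order of recovery time. All 3 arrays at 44 °C lay above all 3 at 42 °C and above the control, as deposited and under both other scalings. The difference from the control at 44 °C, 0 h was 0.88 log2 units as deposited and did not reach 2-fold; it was 0.46 when quantile normalized and 0.48 with the median shift. Without overlap between the temperatures, KRT5 was 1 of the 8 keratin probe sets that reached 4 times the floor, and 6.26% of all 19559 such bright probe sets separated in that way. The 3 arrays of a temperature are different recovery times and not replicates.

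KRT14, the type I partner of KRT5, read 11252 in the control. Its values were 11326, 12730 and 11946 at 42 °C and 15234, 13888 and 14028 at 44 °C. The highest value of any probe set on an array ran from 18096 to 21867. KRT14 had the smallest ratio of highest to lowest array among the 9 probe sets as deposited (1.35) and after quantile normalization (1.17). After the median shift its ratio was 1.67, above the 1.44 of KRT18. As deposited the arrays at 44 °C were all above those at 42 °C, and they were after quantile normalization too, at 13213, 13433 and 14164 against 12298, 12884 and 12148. After the median shift they overlapped, since 44 °C, 0 h stood at 11541 and 42 °C, 0 h at 12416. The largest difference of KRT14 from the control on the deposited scale was 0.44 log2 units.

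KRT15, a type I keratin of basal cells and of the hair follicle bulge, was dim, at 130 in the control. It read 111, 81.4 and 85.5 at 42 °C and 156, 169 and 117 at 44 °C, so that the control lay between the temperatures as deposited at 0 and 6 h and above both at 12 h. At 6 h it rose 2.08-fold from 42 °C to 44 °C, from 81.4 to 169, by 1.06 log2 units as deposited, and by 1.43 (quantile normalized) and 1.37 (median shift) in the other scalings. This was the 1 rise among the 9 keratin probe sets in that comparison, where 1.73% of all probe sets rose and 4.79% fell. Against the control, KRT15 was at -0.67 log2 units at 42 °C, 6 h and -0.60 at 42 °C, 12 h, and did not reach 2-fold under any scaling.

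In the comparisons of 44 °C with 42 °C at 0 h and at 12 h, 0 of 9 keratin probe sets rose or fell. Of all probe sets, 3.55% were called higher and 0.746% lower at 0 h, and 1.83% higher and 3.63% lower at 12 h.

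The 3 recovery times give 3 matched pairs of a 44 °C and a 42 °C array, so the temperatures were also compared over the times together, with recovery time as a block, in limma on the quantile-normalized values. This fit treats a temperature difference that varies with time as error. Of the 9 keratin probe sets, 0 passed an adjusted p of 0.05 (Benjamini-Hochberg over 27036 probe sets), where 3.38% of all probe sets did. At an unadjusted limma p under 0.05 there were 5 of 9 keratin probe sets and 6293 of all 27036. This count depended on the scaling. It was 0 of 9 as deposited (2046 of all 27036) and 3 of 9 with the median shift (6314 of all 27035). The smallest adjusted p was that of KRT19, which was 0.43 ± 0.11 log2 units (SE, 3 pairs) higher at 44 °C, with a limma adjusted p of 0.0665 and a 95% interval of 0.17 to 0.69. As deposited KRT19 was 0.40 higher, with a 95% interval of -0.22 to 1.03 (limma adjusted p = 0.86). With the median shift it was 0.50 higher (limma adjusted p = 0.091). KRT5 was 0.27 ± 0.09 higher (limma adjusted p = 0.112; 0.14 with the median shift and 0.73 as deposited). KRT15 was 0.77 ± 0.32 higher (limma adjusted p = 0.191), and KRT18 was at -0.21 ± 0.07 (limma adjusted p = 0.136), but at 0.04 with the median shift. Without the 0 h pair, KRT15, KRT18 and KRT19 passed (limma adjusted p = 0.00659, 0.0294 and 0.017), and without the 6 h or the 12 h pair 0 of 9 did. The fit without the 0 h pair rests on 2 pairs. It called 2101 of all 26989 probe sets higher and 2431 lower, a far larger share than the 3.38% of the full fit.

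Among the members, promoter sequences were at hand for KRT5 and KRT8 only, and both are shown. For KRT5, the 250 bases before its start in the RefSeq table (GRCh38.p14, chr12:52520395-52520644, minus strand) were searched on both strands for 4 motifs. The AP-1 motif was taken as TGANTCA and the TATA box as TATAAA. For the core of a heat shock element, GAANNTTC was searched, and its other arrangement TTCNNGAA. The capitals mark the 1 match found, TTCNNGAA, whose first base lies 40 bases before the start.

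KRT5: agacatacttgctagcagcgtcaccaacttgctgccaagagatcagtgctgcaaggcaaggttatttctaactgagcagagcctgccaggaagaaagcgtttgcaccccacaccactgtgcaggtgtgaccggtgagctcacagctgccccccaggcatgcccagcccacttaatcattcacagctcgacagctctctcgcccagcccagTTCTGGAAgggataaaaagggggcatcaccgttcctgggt

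TTCNNGAA was present in 6.62% of the same windows of all 35116 promoters in that table, GAANNTTC in 5.78%, TGANTCA in 6.57% and TATAAA in 10.7%. The match is a description of the letters in this window and says nothing of binding. KRT5 showed no 2-fold difference from the control on any heated array.

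Of the wound and hyperproliferation keratins, only KRT16 was measured here. KRT16, a type I chain that pairs with KRT6A, was dim, at 100.3 in the control. It read 59.1, 97.5 and 79.0 at 42 °C and 148, 104 and 87.2 at 44 °C. The lowest value was at 42 °C, 0 h and the highest at 44 °C, 0 h, and the temperatures overlapped as deposited. Between these arrays the ratio was 2.50-fold as deposited, but 0.73 log2 units when quantile normalized and 0.79 with the median shift, so it was not called. When quantile normalized, the arrays at 44 °C stood together at 114, 119 and 119, above the control at 100.2 and above 68.6, 85.0 and 76.5 at 42 °C. Of the 8 bright keratin probe sets, 4 (KRT5, KRT14, KRT16 and KRT19) separated the temperatures in this way after quantile normalization, as did 19.2% of all bright probe sets, and 3 did so after the median shift (18%) and 3 as deposited (7.76%).

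**Figure D2:**
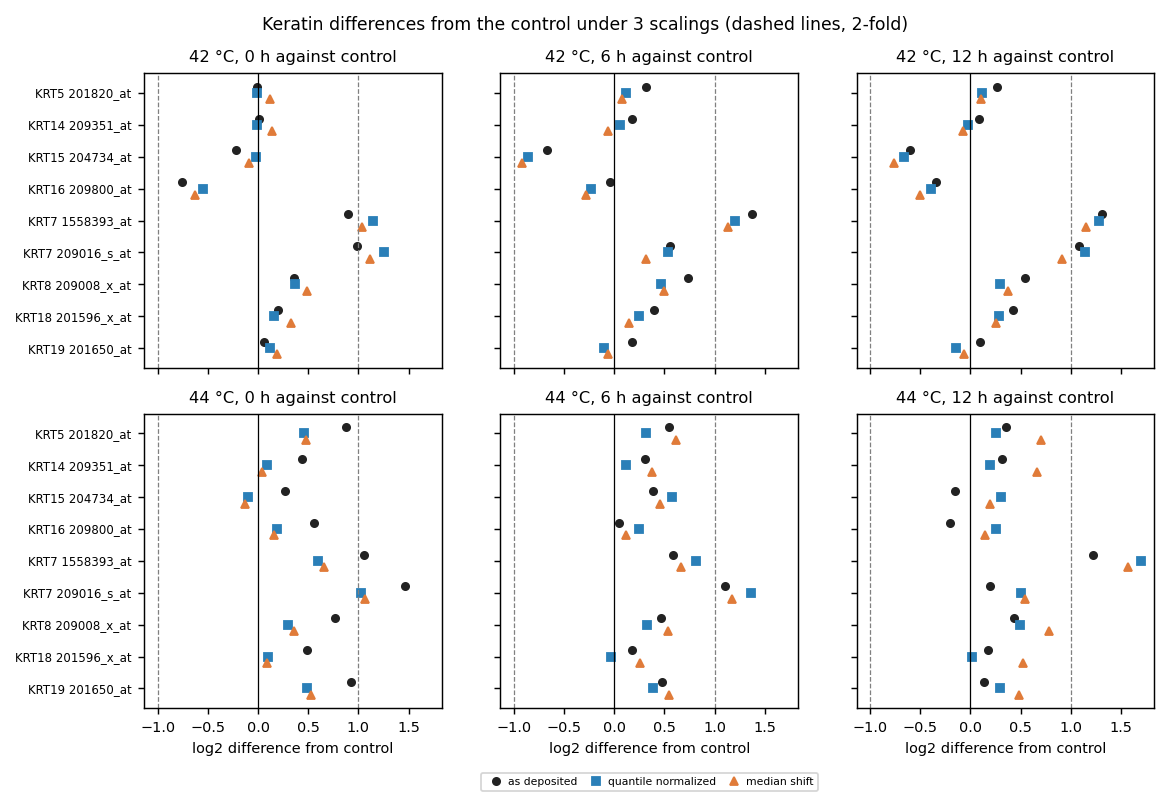
Log2 difference from the control (horizontal axis) of the 9 keratin probe sets on each of the 6 heated arrays, as deposited (circles), quantile normalized (squares) and with the median shift (triangles); dashed lines mark 2-fold. Only KRT7 has all 3 symbols past a dashed line in any panel; KRT5 at 44 °C, 0 h lies at 0.88 as deposited and at 0.46 when quantile normalized.

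Among the simple epithelial keratins, KRT7, a type II keratin of glandular and transitional epithelia, was near the floor. Its brightest probe set read 35.1 in the control, 65.5, 91.1 and 87.0 at 42 °C and 73.0, 52.8 and 81.8 at 44 °C. The second one above the floor read 27.1 in the control, 53.6, 39.8 and 57.1 at 42 °C and 74.6, 58.2 and 30.9 at 44 °C. Both were lowest in the control, and they peaked on different arrays.

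The brightest KRT7 probe set rose 2.59-fold at 42 °C, 6 h, 2.48-fold at 42 °C, 12 h and 2.33-fold at 44 °C, 12 h. The other rose 2.76-fold at 44 °C, 0 h and 2.15-fold at 44 °C, 6 h. No array had a call from both under all 3 scalings. At 42 °C, 0 h they were at 0.90 and 0.99 log2 units as deposited, just short of 2-fold, and past it when quantile normalized (1.14 and 1.26) or shifted by the median (1.03 and 1.12). The remaining KRT7 probe sets never exceeded 16.4 and 9.16, below the floor. All KRT7 values were under 100 units, and each call under all 3 scalings rests on 1 probe set. The other probe set was also past 2-fold at 42 °C, 12 h as deposited (2.11-fold) and when quantile normalized (1.14 log2 units) but not with the median shift (0.92), and at 44 °C, 0 h as deposited (2.08-fold) only.

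KRT8, a type II keratin of simple epithelia, read 2256 in the control. It read 2886, 3762 and 3281 at 42 °C and 3827, 3109 and 3049 at 44 °C. Every heated array was above the control, as deposited and under both other scalings, with differences of 0.36 to 0.76 log2 units as deposited and 0.30 to 0.50 after quantile normalization. None reached 2-fold. Of the 9 keratin probe sets, KRT8 and both KRT7 probe sets were above the control on all 6 heated arrays under all 3 scalings, and 0 were below it on all 6. Of all 19559 bright probe sets, 6.72% were above the control on all 6 and 3.12% below it. KRT7 reached the bright range only on heated arrays, so nothing is read from its count. Without it KRT8 was 1 of 7, and the 6 differences share 1 control array.

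KRT18, the type I partner of KRT8, read 9538 in the control, 10945, 12530 and 12773 at 42 °C and 13350, 10816 and 10798 at 44 °C. All heated arrays were above the control as deposited, by 0.18 to 0.49 log2 units, but after quantile normalization 44 °C, 6 h was below it, at 10442 against 10690. After quantile normalization the arrays at 42 °C (11937, 12700 and 12978) were all above those at 44 °C (11409, 10442 and 10776), the reverse of the order of KRT5. They overlapped as deposited and after the median shift. Of all bright probe sets, 15.5% had all arrays at 42 °C above those at 44 °C after quantile normalization, 10.9% as deposited, 16.2% after the median shift and 8.2% in all 3 scalings. The probe sets of KRT8 and KRT18 are of the kind marked _x_at, in which probes can match other transcripts, and the RefSeq gene table names 52 pseudogenes of KRT8 and 68 of KRT18, so both readings can include related sequences.

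The KRT8 promoter is shown beside that of KRT5 as the second member for which the table holds one. The same 250-base window before its start in that table (GRCh38.p14, chr12:52926470-52926719, minus strand) held 0 matches to the 4 motifs, so it has no capitals. Windows before any other start of KRT8 were not searched.

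KRT8: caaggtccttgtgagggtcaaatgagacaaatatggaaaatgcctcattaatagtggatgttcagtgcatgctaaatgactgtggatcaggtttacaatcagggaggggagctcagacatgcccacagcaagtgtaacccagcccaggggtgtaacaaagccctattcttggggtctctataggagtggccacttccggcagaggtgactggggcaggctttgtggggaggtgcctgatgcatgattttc

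KRT19, a type I keratin that lacks the usual tail domain and is found in simple epithelia and in some basal cells, read 1588 in the control. It read 1655, 1797 and 1697 at 42 °C and 3016, 2207 and 1749 at 44 °C. The array at 44 °C, 0 h was the highest, 1.90-fold above the control as deposited; the difference was 0.49 log2 units when quantile normalized and 0.52 with the median shift. At 42 °C the 3 arrays lay within 0.18 log2 units of the control as deposited. After quantile normalization KRT19 read 2418, 2254 and 2122 at 44 °C, all above 1880, 1606 and 1563 at 42 °C and 1727 in the control. A second KRT19 probe set never exceeded 16.1.

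Set beside all bright probe sets, most keratins lay within the common spread. KRT7 is left out of these counts, since it was bright only on the heated arrays where it was high. After quantile normalization, all 7 of the other bright keratin probe sets were inside the central 90% of bright probe sets at 42 °C, 0 h and at 44 °C at every time, and 6 of 7 were at 42 °C, 6 h and 12 h, where KRT15 lay below. At 42 °C, 3, 4 and 3 of the 7 were above the control after quantile normalization, and at 44 °C 6, 6 and 7 were. Of all bright probe sets, 49.5%, 49.5% and 50.9% were above the control at 42 °C and 52.8%, 51.9% and 49.4% at 44 °C. Medians were taken over the same 7 keratin probe sets, without KRT7. After quantile normalization they were -0.007, 0.06 and -0.03 log2 units at 42 °C and 0.19, 0.31 and 0.26 at 44 °C. The medians of all bright probe sets were -0.002, -0.0004 and 0.007 at 42 °C and 0.04, 0.02 and -0.004 at 44 °C. As deposited the medians of the 7 keratin probe sets were 0.01, 0.18 and 0.10 at 42 °C and 0.56, 0.39 and 0.18 at 44 °C. Those of all bright probe sets were -0.13, 0.25 and 0.17 at 42 °C and 0.42, -0.06 and -0.36 at 44 °C. At 42 °C, 6 h and 12 h the keratin medians were thus close to those of all bright probe sets.

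**Figure D3:**
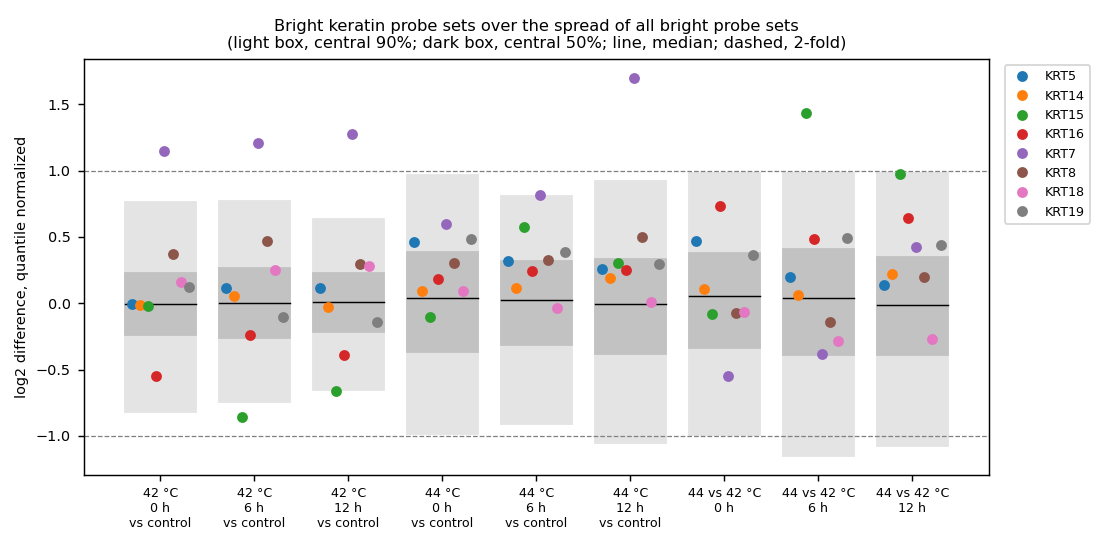
Log2 differences after quantile normalization (vertical axis) of the 8 bright keratin probe sets (points, colour by gene) in 9 comparisons, over the central 90% (light box) and central 50% (dark box) of all 19559 bright probe sets; lines mark the medians, dashed lines 2-fold. KRT7, which is bright only on heated arrays, lies above the light box on every array but 44 °C, 0 h, narrowly so at 44 °C, 6 h. KRT15 lies below it at 42 °C, 6 h and, narrowly, 12 h, and above it at 44 °C against 42 °C, 6 h.

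The genes whose pattern over the 7 quantile-normalized arrays was most like the mean of each keratin group were taken from 3095 genes never below the floor, with a range of at least 1 log2 unit. Closest to the basal group (KRT5, KRT14 and KRT15) were SCARA3 (Pearson r = 0.99 over 7 arrays), PI3, the protease inhibitor elafin (0.99), and SERGEF (0.98). PI3 read 102 in the control, 81.7, 59.6 and 68.4 at 42 °C and 179, 159 and 112 at 44 °C. Closest to KRT16 were CEP131 (0.99), UCN2 (0.98) and FAR2 (0.97), and to the simple group (KRT7, KRT8, KRT18 and KRT19) MIB2 (0.96), CLU, the extracellular chaperone clusterin (0.93), and PKIB (0.91). The group means ranged over only 0.56, 0.80 and 0.63 log2 units and KRT15 and KRT7 had the widest ranges within their groups, so these are likenesses over few arrays and small differences. Members of a group did not all run together. After quantile normalization r was 0.69 for KRT5 with KRT14 but 0.33 for KRT5 with KRT15. It was 0.90 for the brightest KRT7 probe set with KRT8 but -0.67 for KRT18 with KRT19. A likeness to a group mean need not hold for each member.

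Few other keratins passed 2-fold against the control. Of 15 with a probe set, 11 reached the floor on any array. KRT80, a type II keratin of differentiating epithelia, read 79.7 in the control, 121, 147 and 268 at 42 °C and 170, 117 and 70.7 at 44 °C. It rose 3.36-fold at 42 °C, 12 h, the 1 rise among 11 there (0.991% of 15029 genes rose), and was 3.79-fold lower at 44 °C than at 42 °C at that time (3.7% of genes fell). KRT78 fell from 45.7 in the control to below the floor on all 3 arrays at 42 °C, at least 2.14-fold. At 44 °C it read 24.6, 24.6 and 21.9, also below the control, at -0.89, -0.89 and -1.06 log2 units as deposited, and was not called. Its second probe set was below the floor on every array. KRT78 was the 1 fall among 11 in each of these comparisons (3.21%, 2.02% and 1.45% of genes fell; 1.52% rose at 6 h). KRT10, the type I keratin of the suprabasal layers, had no call in any of its 3 probe sets, which ranged from 1170 to 3086. Between the temperatures, KRT75, a hair follicle keratin, was higher at 44 °C at all 3 times, where it read 81.9, 60.5 and 51.8. At 42 °C it was below the floor, so these are ratios of at least 3.83-fold at 0 h, at least 2.83-fold at 6 h and at least 2.43-fold at 12 h. It was joined at 0 h by KRT9, a keratin of palm and sole skin, at 165 against 45.3. Of all genes 3.01%, 1.72% and 1.83% were higher in these comparisons, and both names were chosen with their values known.

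Of the 15 desmosome and filament-linker genes that reached the floor, 1 changed against the control. Desmosomes anchor keratin filaments at cell contacts. EVPL, envoplakin, a linker of the cornified envelope, read 44.4 in the control and 11.6 at 42 °C, 12 h, at least 2.08-fold lower, and 78.2, 54.8 and 57.2 at 44 °C. It was the 1 fall among 15 at 42 °C, 12 h, where 1.45% of genes fell, and the 1 rise among 15 from 42 °C to 44 °C at 12 h, by at least 2.68-fold, where 1.83% of genes rose. At 44 °C, 12 h the list median was -0.56 log2 units as deposited and -0.21 after quantile normalization, beside -0.16 and 0 for all genes, with 0 of 15 called in either direction (1.74% of genes rose and 3.64% fell).

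A list of 14 regulators of keratin genes and epithelial differentiation held transcription factors and the receptor NOTCH1. TP63 had no single-gene probe set. Of the other 13, 3 rose at 44 °C, 6 h (1.54% of genes rose), 2 at 44 °C, 12 h (1.74%) and 1 at 44 °C, 0 h (2.18%). At 42 °C, 1 rose at 0 h (1.48%) and 1 at 12 h (0.991%). From 42 °C to 44 °C, 1, 3 and 2 were higher at 0, 6 and 12 h (3.01%, 1.72% and 1.83% of genes). In the same comparisons 1, 0 and 1 were lower (3.7% of genes at 12 h). The median of the 13 at 44 °C, 6 h was -0.27 log2 units as deposited, beside 0 for all genes. KLF4, a factor of squamous differentiation, read 556 in the control, 639, 418 and 1453 at 42 °C and 1075, 1687 and 2296 at 44 °C. It rose 2.61-fold at 42 °C, 12 h, 3.03-fold at 44 °C, 6 h and 4.13-fold at 44 °C, 12 h, and its second probe set was called on the same arrays. OVOL1, a repressor in epidermal differentiation, read 105 in the control, 265, 98.4 and 166 at 42 °C and 252, 427 and 519 at 44 °C. It rose 2.53-fold at 42 °C, 0 h (1.48% of genes rose), 4.07-fold at 44 °C, 6 h and 4.94-fold at 44 °C, 12 h, again with its second probe set.

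ELF3, an epithelial ETS factor, read 42.8 in the control, was below the floor at 42 °C and read 193, 92.8 and 78.1 at 44 °C. It rose 4.50-fold at 44 °C, 0 h and 2.17-fold at 6 h, but its other probe set above the floor on all arrays, between 36.9 and 80.0, had no call. TFAP2A fell 2.28-fold at 42 °C, 0 h, from 1643 to 719, and GRHL1 2.35-fold at 44 °C, 0 h, from 65.1 to 27.7 (0.725% of genes fell there, and 2.75% at 44 °C, 6 h). The names of TFAP2A and GRHL1 were chosen with their values known. KRT7 was the only measured member called against the control on any heated array, and a link of these regulators to the keratins was not tested.

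**Figure D4:**
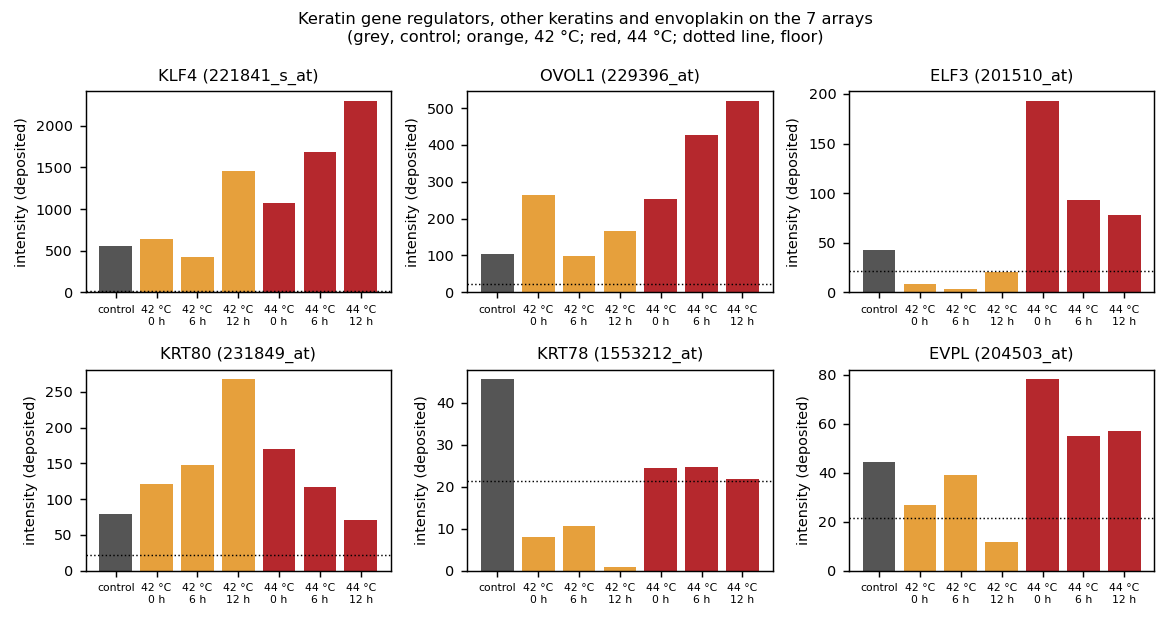
Deposited intensity (linear scale, from 0) of KLF4, OVOL1, ELF3, KRT80, KRT78 and EVPL, one panel each, on the control (grey), 42 °C (orange) and 44 °C (red) arrays; each bar is 1 array and the dotted line is the floor. KLF4 and OVOL1 are highest at 44 °C, 12 h (2296 and 519), and KRT80 at 42 °C, 12 h (268).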

How the data were processed

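RNA of HSC-3 cells from 7 conditions was measured on 1 Affymetrix Human Genome U133 Plus 2.0 array each, from 5 µg of total RNA, per the labels. The values are probe set intensities deposited by the authors on a linear scale, and neither the labels nor the table state how probes were summarised. All 7 columns were used, with 0 columns from other samples.

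Probe sets were named from the array's annotation table (41097 list 1 gene, 1801 several, 11777 are not listed), with symbols updated through a gene table of GRCh38.p14, used for names only. A gene other than a keratin is represented by its brightest single-gene probe set (19775 genes, 15029 reaching the floor). Log2 differences were computed with Python 3.11.15, pandas and NumPy, and the calling code was tested on simulated data. Bright means at least 4 times the floor on any array. Single conditions have 1 array and were not tested. The temperatures were compared over the 3 recovery times with limma 3.58.1 in R 4.3.3 (additive in time and temperature, moderated variances with an intensity trend), on probe sets whose mean reaches the floor and leaving out those with no residual variance; this fit was added after the data were seen. The number of arrays limits the precision.

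The members and lists were chosen with earlier results of these data known. Named genes are all members, up to 3 called genes per list with the largest difference from the control, and the 3 genes most like each group; TFAP2A, GRHL1, KRT9 and KRT75 were added afterwards. Counts of arrays that did not overlap, or lay above the control throughout, were also added after seeing the values. Other scalings, floors and probe set choices were tried.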

Additional observations from a re-analysis of the deposited data

How the results depend on the processing

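Counts of keratin probe sets past 2-fold were 0 or 1 in each comparison, so a single probe set moves them. As deposited alone they were 2 at 42 °C, 12 h, 2 at 44 °C, 0 h and 1 at 44 °C against 42 °C, 0 h. After quantile normalization alone they were 2 at 42 °C, 0 h and 2 at 42 °C, 12 h, and after the median shift alone 2 at 42 °C, 0 h. With no floor, where readings below it are counted too, they were 2, 3 and 2 at 42 °C (0, 6 and 12 h), 3 and 3 at 44 °C (0 and 6 h), and 2, 2 and 1 at 44 °C against 42 °C. With the floor at 4 times the median (85.4) the count was 0 wherever it had been 1. This was at 42 °C, 6 h and 12 h, at all 3 times after 44 °C and at 44 °C against 42 °C, 6 h. KRT7 is then at most 1.07-fold from the control in these comparisons. That limit is set by the floor, since its control values lie below 85.4 and its highest value is 91.1. The ratio of KRT15 goes from 2.08-fold to 1.98-fold. Counting single-gene probe sets only changed nothing, since no member probe set lists several genes. Of the 72 differences of single members, quantile normalization turned the sign of 14 and the median shift of 18, all short of 2-fold, and the floor and the mean of a gene's probe sets turned 0. That mean took KRT7 below 2-fold in all 4 comparisons where it had been past it as deposited. It includes the 2 KRT7 probe sets below the floor on every array, whose differences are set to 0. The mean of the 2 KRT7 probe sets above the floor was past 2-fold at 42 °C, 12 h and 44 °C, 0 h (1.19 and 1.26 log2 units) and short of it at 42 °C, 6 h and 44 °C, 12 h (0.97 and 0.71). In the limma comparison of the temperatures with recovery time as a block, 0 keratin probe sets were called in all 3 scalings and 0 to 3 when 1 recovery time was left out. The 3 came without the 0 h pair, where 2101 of all 26989 probe sets were called higher and 2431 lower. The 42 °C or 44 °C arrays could not be paired with the control, which has 1 array.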

Other observations

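Of the 9 cornified envelope genes that reached the floor, 0 rose and 0 fell in any of the 9 comparisons. Against the control 0.991% to 2.18% of all genes rose and 0.725% to 3.64% fell, so 0 calls among 9 genes is near the background there. From 42 °C to 44 °C, 1.72% to 3.01% of all genes were higher, and 3.7% were lower at 12 h. Their median difference between 44 °C and 42 °C at 12 h was 0.55 log2 units as deposited and 1.16 after quantile normalization, where the medians of all genes were -0.26 and 0. That median was thus past 2-fold after quantile normalization but not as deposited, and a call needs all 3 scalings. Among 10 other intermediate filament genes that reached the floor, DES, the muscle filament protein desmin, fell at least 2.14-fold from 45.7 to below the floor at 42 °C, 0 h, 42 °C, 12 h and 44 °C, 6 h (3.21%, 1.45% and 2.75% of genes fell), and NEFM, a neurofilament chain, rose at least 2.26-fold to 48.2 at 44 °C, 6 h (1.54% rose). The second probe sets of both genes were below the floor on every array.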
